A study of Mus musculus with 19 samples.

Results

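The members described here were the probe sets whose every listed gene symbol begins with Mir297, Mir466, Mir467 or Mir669, the repeat microRNA families of the mouse. There were 70 of them among the 41345 probe sets of the array. They listed 40 distinct symbols: 43 members listed 1 symbol and 27 listed several near-identical copies. The families had been chosen by their measured log2 differences between tumour and wild-type spleens in these same mice, so those differences are given as a description and support nothing by themselves.

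The study placed a conditional transgene for HGAL, a human adaptor protein of germinal centre B cells, at the Rosa26 locus and turned it on with 3 different Cre drivers. Gene expression was measured once per mouse in 19 mice described in the labels as biological replicates, in total RNA of splenic cells whose tissue the labels give as the total spleen. Tumour-bearing spleens came from Rosa26-HGAL+Aid-Cre mice (4), where Cre follows the gene for the antibody-diversifying enzyme of activated B cells, from Rosa26-HGAL+Mb1-Cre mice (5), where Cre is active from early B cell precursors onward, and from Rosa26-HGAL+Sca1-Cre mice (4), where Cre is driven by a gene of stem and progenitor cells. A further 3 Rosa26-HGAL+Sca1-Cre spleens were taken before tumours formed, and 3 spleens came from wild-type mice. The labels give no ages, no Cre-only controls and no sorting of cells. P-values therefore measure the spread between these mice.

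MicroRNAs are cut from hairpins in longer transcripts, and the mature strand guides Argonaute proteins to messenger RNAs that match its seed, bases 2 to 8. In the mouse, most genes of these families lie close together in an intron of Sfmbt2, the gene of a Polycomb repressor protein that is imprinted and is best known from the placenta and its trophoblast cells. Copies within a family differ by few bases, so a signal cannot be assigned to a single copy. The array does not tell a mature microRNA from its hairpin or from the intron that carries it.

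In the GRCm38.p6 gene table, 38 of the 40 symbols lay inside Sfmbt2 on chromosome 2, in a run of 72 microRNA genes of which 71 carried names of the 4 families. These account for 68 of the 70 members. The remaining 2, Mir467f on chromosome 11 and Mir466i on chromosome 13, lay elsewhere. RefSeq sequences were at hand for the mature microRNAs of only these 2 members and of a few relatives that no member represents. They are shown because they make the repeat visible on which the families are built, with the seed in capitals.
mmu-miR-467f: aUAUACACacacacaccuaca
mmu-miR-466i-3p: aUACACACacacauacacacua
mmu-miR-466q: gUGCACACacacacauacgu
mmu-miR-467g: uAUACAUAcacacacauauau
mmu-miR-466k: uGUGUGUGuacauguacauguga
mmu-miR-669n: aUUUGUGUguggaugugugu
In GRCm38.p6 the first sequence lies at chr11:69635419-69635439 on the minus strand and the second sequence at chr13:17747552-17747573 on the plus strand. The letters ACACAC or GUGUGU were searched in the mature strand as written. They occurred in 8 of 8 mature sequences of these families at hand and in 28 of all 1738 mature mouse sequences at hand (1.61%). No member inside Sfmbt2 was among the sequences searched. Each of the 6 seeds shown occurred in 1 mature microRNA of the table, so these relatives share a repeat but not a seed.

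The 70 members held fewer than 70 independent measurements. Rows identical to the last digit left 39 distinct profiles, of which 9 were held by more than 1 probe set, covering 40 members. The largest set was 12 probe sets that each listed Mir669a-1, Mir669a-2 and Mir669a-3. A set of 8 listed 5 copies of Mir467a, and a set of 6 listed Mir466b-2. Counts are therefore given both for the 70 probe sets and for the 39 profiles. Most members were dim: 61 probe sets (32 profiles) had a mean below the median probe set mean of 5.33 on the log2 scale, and 4 profiles had a mean above 6.

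Across the whole series, array medians lay between 5.23 and 5.40. Markers of the exocrine pancreas (3 of 5 measured) averaged 9.41 in Mb1-Cre tumour replicate 2 and 7.001 in wild type replicate 2, and at most 6.17 in the other arrays. B cell markers (4 of 5 measured) averaged 8.09 to 11.46 in the Aid-Cre tumours, 9.34 to 10.74 in the Mb1-Cre tumours, 9.27 to 11.33 in the Sca1-Cre tumours, 11.14 to 11.42 in Sca1-Cre pre-tumour spleens and 10.98 to 11.47 in wild type. Signal from Y-linked genes marked 1 of the 4 Aid-Cre spleens, 4 of the 5 Mb1-Cre spleens, 2 of the 4 tumour-bearing and 1 of the 3 pre-tumour Sca1-Cre spleens, and all 3 wild-type spleens. Counts of called members that change without the 2 pancreas-marked arrays, or with sex as a covariate, are given with both values. Counts of lower, higher and non-overlapping members, and the median differences, were computed with all 19 arrays only. Whether they hold without those arrays was not tested.

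Relative to wild type, the members lay on both sides of 0. Averaged over the 3 tumour groups with equal weight, 49 of 70 members (27 of 39 profiles) were lower and 21 (12 profiles) were higher, with a median difference of -0.34 on the log2 scale over probe sets and -0.28 over profiles. The median over the 492 other microRNA probe sets was -0.02, and over all probe sets it was -0.00. The spread among profiles was wide, from -2.28 to 0.37. In 22 members, which were 6 profiles, the highest tumour value was below the lowest wild-type value (0.614% of all probe sets), and in no member was the lowest tumour value above the highest wild-type value (0.319%). In the limma fit 2 members, Mir669a-3 and Mir466h, had an adjusted p under 0.05, the threshold for a call here, and both were lower (all probe sets: 0.058% called lower, 0.104% in either direction). Because the members were chosen on this contrast, these calls only describe the fit, and so do those of each tumour line against wild type.

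The counts by family ran both ways. Among the 9 Mir466 profiles 8 were lower in tumours, with a median difference of -0.39, and 1 was called. Among the 21 Mir669 profiles 17 were lower, with a median of -0.32, and 1 was called. Of the 7 Mir467 profiles only 1 was lower, and their median was 0.22, with none called. The 2 Mir297 profiles lay on either side, at -0.88 for Mir297a-4 and 0.29 for Mir297b. The direction of the tumour median did not turn under quantile normalisation, median centring or cyclic loess, each of which left 27 of 39 profiles lower. These settings keep all arrays. The counts by direction and by family were not computed without wild type replicate 2.

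**Figure D1:**
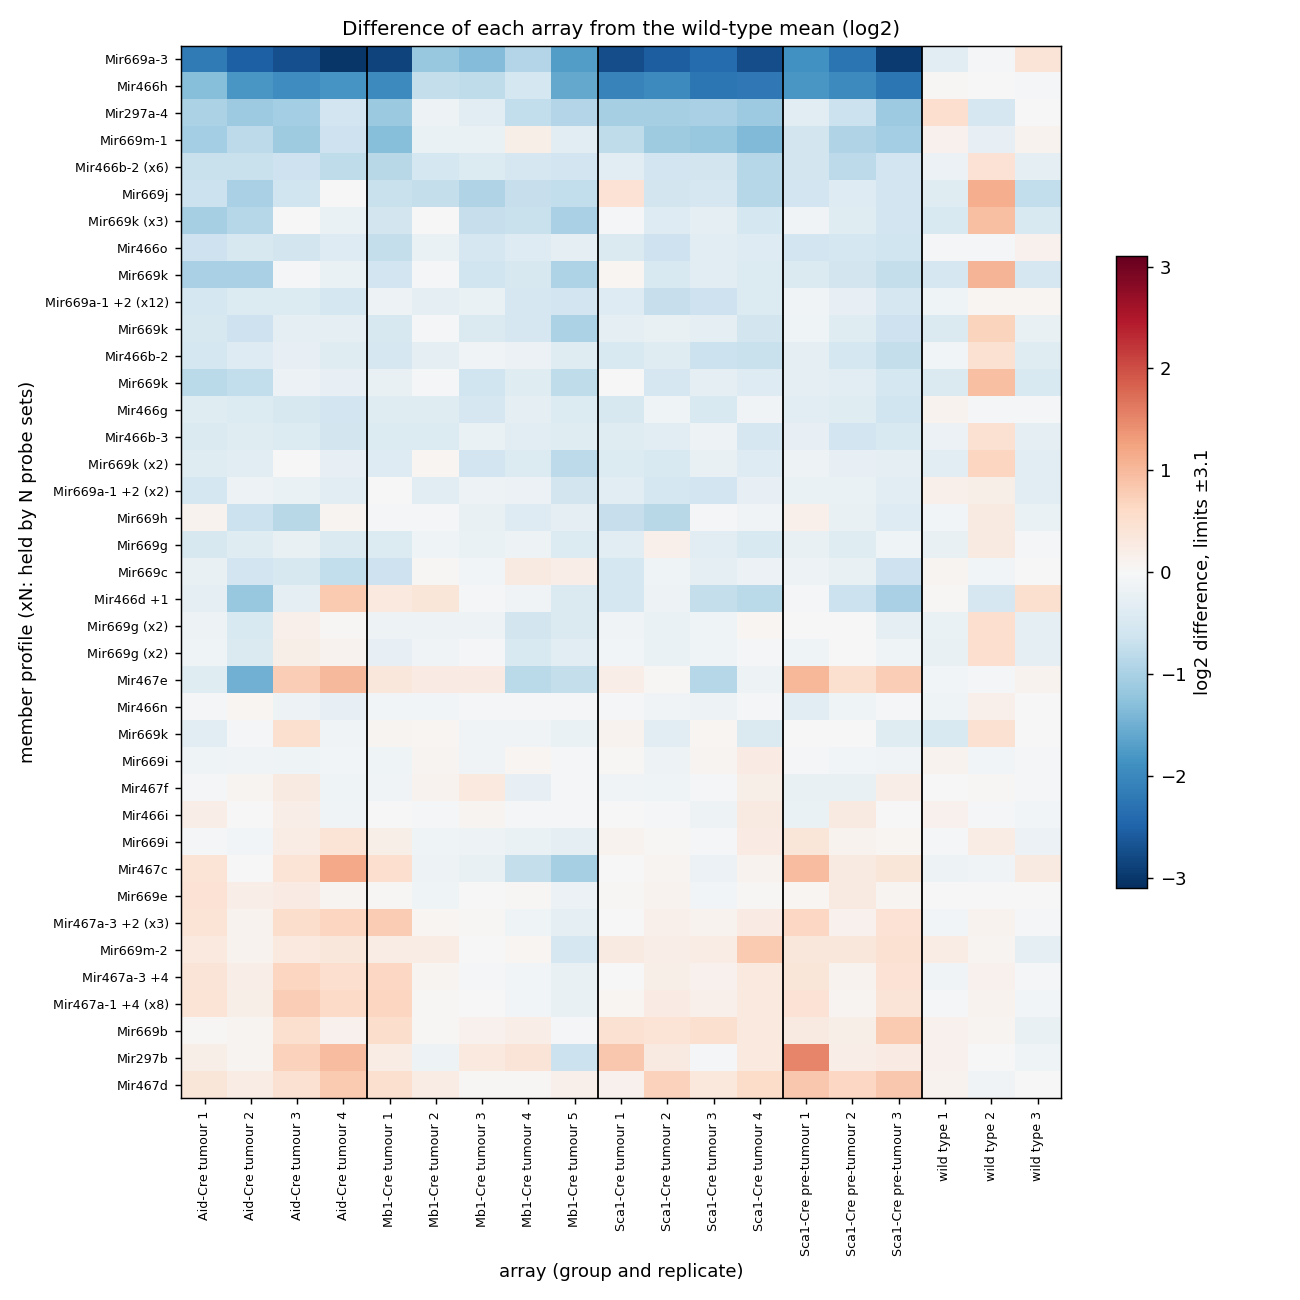
Log2 difference of each array from the wild-type mean for the 39 distinct member profiles (rows, ordered by their tumour difference; a number after x gives the probe sets that hold the profile, and a number after + the further symbols listed). Columns are the 19 arrays by group, wild type at the right; Mir669a-3 and Mir466h form the dark rows at the top, and the Mir467 family sits mostly at the bottom.

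Mir669a-3 showed the widest difference of all members. The probe set that lists it alone (17366744) read 5.27, 4.93, 4.73 and 4.44 in the Aid-Cre tumours, 4.59, 6.28, 6.12, 6.54 and 5.74 in the Mb1-Cre tumours, 4.72, 4.91, 5.07 and 4.70 in the Sca1-Cre tumours, 5.58, 5.19 and 4.50 in Sca1-Cre pre-tumour spleens and 7.10, 7.42 and 7.86 in wild-type spleens. All 16 HGAL spleens lay below all 3 wild-type spleens, and the Mb1-Cre tumours other than replicate 1 lay closest to wild type. The differences from wild type were -2.62 ± 0.37 (standard error) in the Aid-Cre tumours, -1.61 ± 0.35 in the Mb1-Cre tumours, -2.61 ± 0.37 in the Sca1-Cre tumours and -2.37 ± 0.39 in Sca1-Cre pre-tumour spleens. These 4 comparisons share the wild-type arrays.

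Mir466h, near the far end of the same run of genes, was likewise lower. Its probe set (17366932) read 6.44, 5.95, 5.84 and 5.94 in the Aid-Cre tumours, 5.80, 7.03, 6.97, 7.22 and 6.17 in the Mb1-Cre tumours, 5.69, 5.79, 5.54 and 5.55 in the Sca1-Cre tumours, 5.96, 5.80 and 5.53 in pre-tumour spleens and 7.81, 7.77 and 7.72 in wild type. Again no HGAL spleen reached a wild-type value, and 3 of the 5 Mb1-Cre tumours were the nearest to it. The differences were -1.72 ± 0.26 in the Aid-Cre tumours, -1.13 ± 0.25 in the Mb1-Cre tumours, -2.12 ± 0.26 in the Sca1-Cre tumours and -2.002 ± 0.28 in pre-tumour spleens. The wild-type SD of Mir466h was 0.05 (n = 3), the smallest of its 5 groups, and the Mb1-Cre SD was 0.62 (n = 5).

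**Figure D2:**
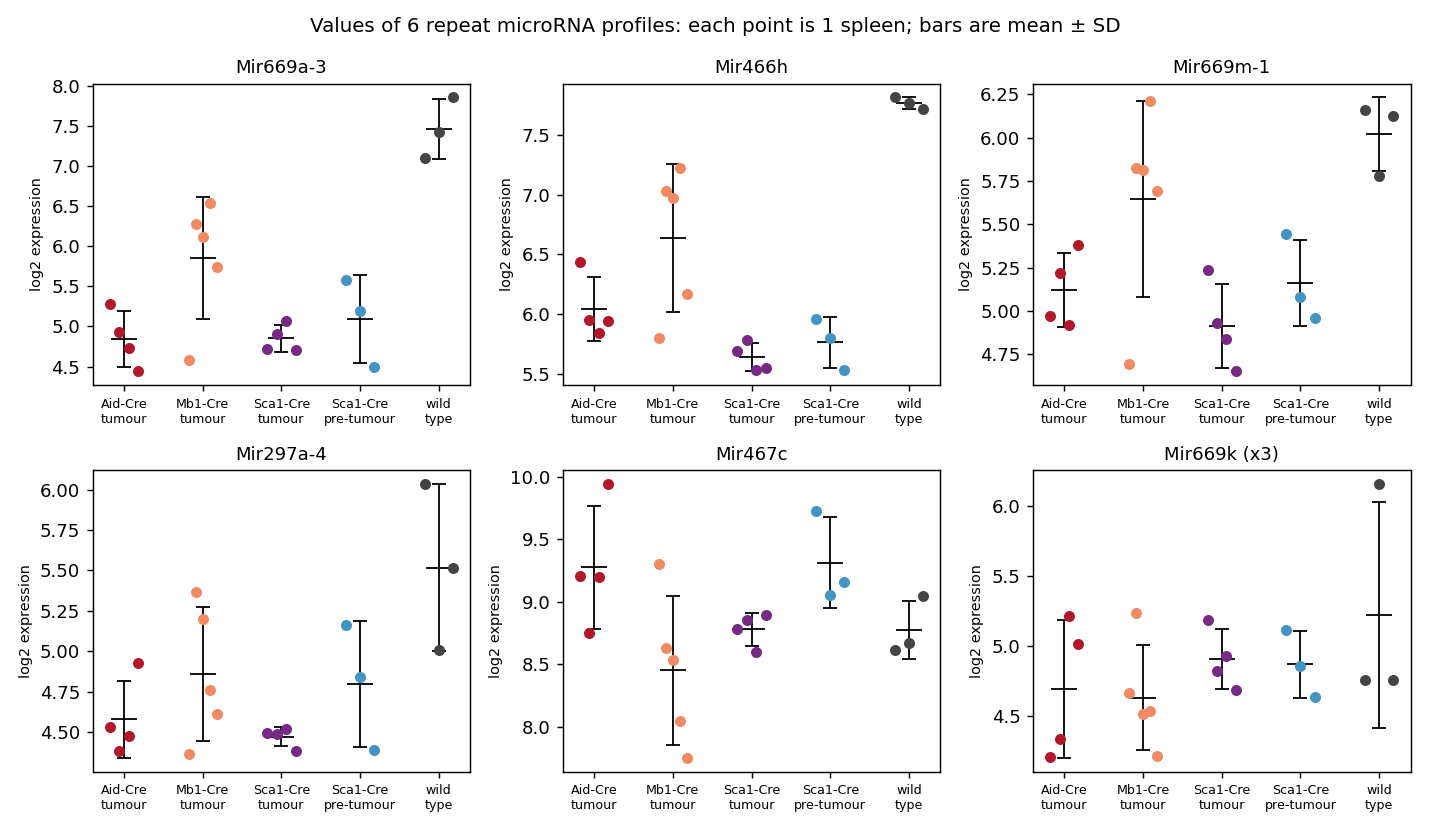
Log2 expression of 6 member profiles by group, 1 point per spleen, with the group mean and SD as bars (Aid-Cre tumour n = 4, Mb1-Cre tumour n = 5, Sca1-Cre tumour n = 4, Sca1-Cre pre-tumour n = 3, wild type n = 3). Each panel has its own axis, which does not start at 0; Mir669a-3 and Mir466h were lower in all HGAL spleens, Mir467c overlapped with wild type in each tumour group, and the wild-type mean of Mir669k was set by 1 array.

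Taken by line, with the same 3 wild-type arrays in each contrast, Mir669a-3 and Mir466h were the 2 of 70 members called in the Aid-Cre tumours (all probe sets: 0.0774%). The same 2 were called in the Sca1-Cre tumours (all probe sets: 0.239%). In the Aid-Cre tumours neither was called with sex as a covariate, at -2.26 for Mir669a-3 and -1.52 for Mir466h, and over the 7 fits that each left 1 compared array out Mir669a-3 was called in 3 and Mir466h in 1. No member was called in either line without the 2 pancreas-marked arrays, nor in the Aid-Cre tumours with only the compared groups fitted. In Mb1-Cre tumours no member was called by limma (all probe sets: 0.00726%), while 26 of 70 (10 of 39 profiles) had an unadjusted p under 0.05, against 4587 of all 41345 probe sets. The groups did not overlap in 27 members that were lower (11 profiles, background 3.91%) and 11 that were higher (4 profiles, background 4.58%) in the Aid-Cre tumours. For Mb1-Cre tumours these numbers were 22 (6 profiles, background 5.44%) and 0 (background 3.44%). For Sca1-Cre tumours they were 26 (10 profiles, background 7.35%) and 2 (2 profiles, background 5.65%). Over all tumours Mir669a-3 and Mir466h were each called in 14 of the 16 fits that each left 1 array out. Without wild type replicate 2 or replicate 3 neither was called, at differences between -2.46 and -2.08 for Mir669a-3 and between -1.71 and -1.59 for Mir466h over the 16 fits. With both pancreas-marked arrays left out the differences were -2.33 for Mir669a-3 and -1.69 for Mir466h, and no member was called.

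Smaller differences of the same sign were seen in Mir669m-1, Mir297a-4 and Mir466o. Mir669m-1 read 4.97, 5.22, 4.92 and 5.38 in the Aid-Cre tumours, 4.69, 5.82, 5.81, 6.21 and 5.69 in the Mb1-Cre tumours, 5.23, 4.93, 4.83 and 4.65 in the Sca1-Cre tumours, 5.44, 5.08 and 4.96 in pre-tumour spleens and 6.16, 5.78 and 6.13 in wild type. Its Mb1-Cre tumours overlapped with wild type and the other 3 groups did not, and its difference over all tumours was -0.79 ± 0.22. Mir297a-4 read 4.53, 4.38, 4.47 and 4.92 in the Aid-Cre tumours, 4.36, 5.37, 5.20, 4.76 and 4.61 in the Mb1-Cre tumours, 4.49, 4.49, 4.52 and 4.38 in the Sca1-Cre tumours, 5.16, 4.84 and 4.39 in pre-tumour spleens and 6.03, 5.00 and 5.51 in wild type. Here only the Aid-Cre and Sca1-Cre tumours lay wholly below wild type, and the difference over all tumours was -0.88 ± 0.21. Mir466o was near the bottom of the array's range yet separated in every group. It read 2.91, 3.08, 3.00 and 3.16 in the Aid-Cre tumours, 2.83, 3.36, 3.04, 3.17 and 3.29 in the Mb1-Cre tumours, 3.11, 2.93, 3.21 and 3.15 in the Sca1-Cre tumours, 2.96, 3.01 and 2.94 in pre-tumour spleens and 3.49, 3.51 and 3.68 in wild type. Its difference over all tumours was -0.47 ± 0.09, which did not pass the threshold.

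The multi-copy profiles contributed most of the separated probe sets. The 12 identical probe sets for Mir669a-1, Mir669a-2 and Mir669a-3 read 3.68, 3.80, 3.79 and 3.67 in the Aid-Cre tumours, 4.05, 3.91, 4.02, 3.69 and 3.63 in the Mb1-Cre tumours, 3.83, 3.50, 3.59 and 3.80 in the Sca1-Cre tumours, 4.10, 3.97 and 3.71 in pre-tumour spleens and 4.10, 4.29 and 4.28 in wild type. All tumour arrays were below wild type while the pre-tumour spleens reached it, and the tumour difference of -0.46 ± 0.10 was smaller than the -2.28 ± 0.31 of the probe set that lists Mir669a-3 alone. The 6 identical Mir466b-2 probe sets read 3.32 to 3.87 in the 13 tumours, 3.39 to 3.64 in pre-tumour spleens and 3.94 to 4.66 in wild type. They were lower than wild type in every HGAL spleen, with a tumour difference of -0.63 ± 0.13. The 4.66 was the pancreas-marked wild type replicate 2, against 4.03 and 3.94 in the other wild-type spleens. Without that array the tumour difference was -0.40. The other probe set that lists Mir466b-2 alone (17366856) overlapped with wild type, at a tumour difference of -0.41. It read up to 3.88 in tumours and 3.73 in pre-tumour spleens, and 3.92, 4.46 and 3.62 in wild type, where the 4.46 was again replicate 2.

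Mir669j and Mir669k owed their place among the 8 widest differences to 1 wild-type array. Mir669k (the profile held by 3 probe sets) read 6.16 in wild type replicate 2, against 4.75 and 4.76 in the other 2 wild-type spleens and 4.21 to 5.23 in the 16 HGAL spleens. Mir669j read 6.26 in that array, against 4.75 and 4.36 in its wild-type companions and 4.12 to 5.57 elsewhere. Without that array the tumour differences, -0.48 for Mir669k and -0.57 for Mir669j with all arrays, were both -0.01. The same array carried pancreatic transcripts, and Mb1-Cre tumour replicate 2, which carried more of them, had the highest Mir669k value of its group at 5.23. The part of those transcripts in the Mir669k values was not tested.

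Mir467c and Mir467e, 2 of the 5 members with the highest mean, overlapped with wild type in every tumour group. Mir467c read 9.20, 8.75, 9.20 and 9.94 in the Aid-Cre tumours, 9.30, 8.63, 8.53, 8.05 and 7.75 in the Mb1-Cre tumours, 8.78, 8.85, 8.60 and 8.89 in the Sca1-Cre tumours, 9.73, 9.05 and 9.15 in pre-tumour spleens and 8.61, 8.67 and 9.04 in wild type. Only the pre-tumour spleens lay wholly above wild type, and the tumour difference of 0.06 ± 0.26 turned to -0.01 without the 2 pancreas-marked arrays. Mir467e read 8.36, 7.25, 9.50 and 9.75 in the Aid-Cre tumours, 9.09, 8.99, 8.998, 7.90 and 8.01 in the Mb1-Cre tumours, 8.94, 8.77, 7.86 and 8.58 in the Sca1-Cre tumours, 9.76, 9.23 and 9.49 in pre-tumour spleens and 8.65, 8.72 and 8.86 in wild type. Its Aid-Cre SD of 1.15 was wider than any group difference, and its tumour difference was -0.13 ± 0.40. The bright probe set that lists Mir466d and Mir466n read 5.995 to 7.96 in tumours, 6.15 to 7.12 in pre-tumour spleens and 6.65 to 7.65 in wild type, so that all groups overlapped.

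Members whose listed symbols lie close together along the host gene could have unlike differences. Places here are those of the listed symbol, and where each probe set lies was not checked. Mir467c and Mir669a-3 stand at places 13 and 15 of the 72 microRNA genes inside Sfmbt2, with tumour differences of 0.06 and -2.28. Mir669m-1 and Mir669m-2, at the adjoining places 62 and 63, differed by -0.79 and 0.22. Mir669a-3 and Mir466h, the 2 members called, stand at places 15 and 67. The members outside Sfmbt2 were flat and dim: Mir467f stayed between 2.94 and 3.51 and Mir466i between 2.77 and 3.25 in all 19 arrays.

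**Figure D3:**
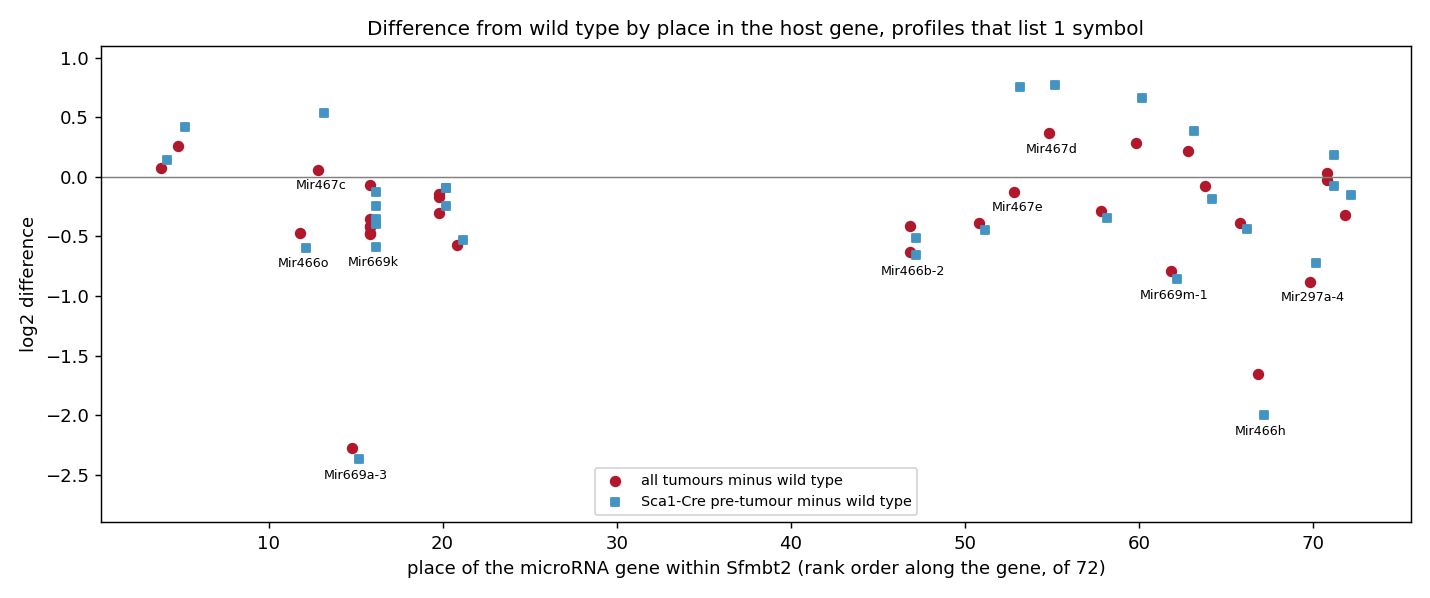
Log2 difference from wild type, for all tumours (circles) and for Sca1-Cre pre-tumour spleens (squares), against the rank order of the microRNA gene inside Sfmbt2; each mark is a profile that lists 1 symbol. The place is that of the listed symbol, so all profiles of a symbol share 1 place. Mir669a-3 at place 15 and Mir466h at place 67 stand below -1.5, with members near or above 0 beside them.

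The host gene Sfmbt2 itself averaged 4.24 ± 0.14 in the Aid-Cre tumours, 4.25 ± 0.10 in the Mb1-Cre tumours, 4.20 ± 0.14 in the Sca1-Cre tumours, 4.25 ± 0.15 in pre-tumour spleens and 4.20 ± 0.14 in wild type (SD, n = 4, 5, 4, 3 and 3). Its difference over all tumours was 0.03 ± 0.09, with an adjusted p of 0.938 in the limma fit. Sfmbt2 was read by 1 probe set, below the median probe set mean of 5.33. At such a level signal over background limits the size of a difference, so an unchanged host gene is not shown. Of its nearest named neighbours, Kin, Itih2, Itih5, Prkcq, Pfkfb3 and Rbm17, 0 of 6 were called in any of the 9 comparisons, and 0 of 6 had an unadjusted p under 0.05 over all tumours.

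Genes that make or load microRNAs were read from a list of 29, of which 23 were measured. None was called in any of the 9 limma comparisons. Over all tumours 3 of 23 had an unadjusted p under 0.05, against 4095 of all 41345 probe sets. The 3 were Ddx5, a helicase of the nuclear microprocessor, at -0.51, Tnrc6c, a scaffold of the silencing complex, at -0.39, and Lin28a, an RNA-binding repressor of let-7 maturation, at 0.44. The list's median difference was -0.09. Of 16 Polycomb genes related to Sfmbt2, all were measured and none was called. There 1 of 16 had an unadjusted p under 0.05 over all tumours, against the same 4095 of all probe sets: Suz12, a core subunit of the H3K27 methyltransferase, at 0.39.

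The Sca1-Cre pre-tumour spleens were compared with wild type next, a comparison outside the tumours but one that shares the wild-type arrays with the choice of the members and so is no independent check on them. Mir466h was 1 of 70 members called (0.0242% of all probe sets), at -2.002 ± 0.28 with an adjusted p of 0.0251 (limma). Mir669a-3 had -2.37 ± 0.39 with an adjusted p of 0.0620, and Mir466o had -0.59 ± 0.12 with an adjusted p of 0.107. All 3 lay below wild type in 3 of 3 pre-tumour spleens. In the other direction Mir467d had 0.77 ± 0.16 with an adjusted p of 0.129. It read 4.34, 4.15 and 4.35 in pre-tumour spleens, against 3.61, 3.41 and 3.50 in wild type, without overlap. In all, 12 members lay wholly below wild type (background 8.43%) and 10 wholly above (background 8.25%), which were 7 and 8 profiles.

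The Mir466h call in pre-tumour spleens rested on all 6 compared arrays. Leaving out any 1 of them left a difference between -2.10 and -1.89 and a largest adjusted p of 0.114, so that 0 of 6 such fits called it. With sex as a covariate the difference was -1.82 and no member was called. With the pancreas-marked arrays left out it was -2.001, again without a call.

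Sca1-Cre tumours were then set against Sca1-Cre pre-tumour spleens, which uses no wild-type array. No member was called, and none of the 41345 probe sets was (0%), while 1 of 70 members and 2488 of all probe sets had an unadjusted p under 0.05. Mir669a-3 differed by -0.24 ± 0.37 and Mir466h by -0.12 ± 0.26, and the values overlapped for both. The 3 smallest p-values belonged to Mir467d, at -0.33 ± 0.15, the 12 identical Mir669a probe sets, at -0.25 ± 0.12, and Mir467e, at -0.96 ± 0.47, each with an adjusted p of 0.80 in limma. Mir467e read 8.94, 8.77, 7.86 and 8.58 in tumours and 9.76, 9.23 and 9.49 in pre-tumour spleens. Mir467e and Mir467c were the 2 members whose tumours lay wholly below the pre-tumour spleens (background 5.04%), and none lay wholly above (background 3.49%).

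Between the tumour lines, which again leaves out wild type, Mb1-Cre tumours had higher values of the leading members, which did not pass the threshold. Against Sca1-Cre tumours, Mir466h was 0.99 ± 0.23 higher in the Mb1-Cre tumours with an adjusted p of 0.0845, and 5 of 5 Mb1-Cre values exceeded every Sca1-Cre value, the 1 member to do so (background 2.09%). None lay wholly below (background 2.98%). Mir669m-1 differed by 0.73 ± 0.23 (adjusted p 0.152) and Mir669a-3 by 1.00 ± 0.32 (adjusted p 0.160), with Mb1-Cre replicate 1 inside the Sca1-Cre range or below it. No member was called (all probe sets: 0.0701%), and 4 of 70 had an unadjusted p under 0.05, against 6474 of all probe sets. Without Mb1-Cre replicate 1 the 3 differences were 1.20, 0.97 and 1.32 for Mir466h, Mir669m-1 and Mir669a-3. Their limma adjusted p-values were 0.0202, 0.0242 and 0.0415, so that 3 members were called. The share of all probe sets called in that fit is not given here.

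Aid-Cre tumours differed from Mb1-Cre tumours by -1.01 ± 0.32 in Mir669a-3 (adjusted p 0.349) and by 0.82 ± 0.27 in Mir467c (adjusted p 0.360), in opposite directions. Both pairs of groups overlapped. No member was called (all probe sets: 0.0169%), and 16 of 70 (9 of 39 profiles) had an unadjusted p under 0.05, against 4014 of all probe sets. Without Mb1-Cre replicate 1, Mir669a-3 was called at -1.33 with an adjusted p of 0.03835. Mir669e, at 0.29 ± 0.08, was the 1 member whose Aid-Cre tumours lay wholly above the Mb1-Cre tumours (background 1.55%), and none had them wholly below (background 0.924%). Between Aid-Cre and Sca1-Cre tumours no member was called (all probe sets: 0.0943%), and 1 of 70 had an unadjusted p under 0.05, against 5833 of all probe sets. There Mir669a-3 differed by -0.01 ± 0.34, and Mir466h, at 0.40 ± 0.24 with an adjusted p of 0.477, was the 1 member with Aid-Cre values wholly above (background 4.01%), and none had them wholly below (background 2.71%).

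How far the members moved together was described by Pearson's r between profiles over the 19 arrays, which share 5 groups of mice and a common normalisation. Over the 741 pairs of the 39 profiles the median r was 0.156, with a range from -0.745 to 0.988. In 150 pairs (20.2%) r was over 0.5 and in 38 it was under -0.5. With each group's mean subtracted the median was 0.116 and 17.1% of pairs were over 0.5. The mean r was 0.156 for the member profiles, 0.0381 for the other microRNA probe sets and 0.00748 for all probe sets. As probe sets of one family can share probes or near-identical targets, these values are descriptive.

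That average combined 3 patterns, set apart here after the values were seen. The first held Mir669a-3, Mir466h, Mir669m-1, Mir297a-4 and Mir466o. Mir669c went with them, at r of 0.74 with Mir669a-3 and 0.79 with group means subtracted. The 6 identical Mir466b-2 probe sets had r of 0.74 with Mir669a-3, and 0.28 with group means subtracted. Mir669a-3 and Mir466h had r of 0.95 (Spearman's rho 0.85) over 19 arrays, 0.89 over the 16 HGAL arrays alone and 0.83 with group means subtracted. For Mir669a-3 and Mir669m-1 the corresponding r values were 0.86, 0.84 and 0.70. For Mir669a-3 and Mir466o they were 0.81, 0.45 and 0.45, so that r was lower without the wild-type arrays. The second pattern held most of the Mir467 family, whose 7 profiles had a median r of 0.67, and 0.64 with group means subtracted. Mir467f, which lies outside Sfmbt2, did not share it, at r of -0.11 with Mir467c and 0.11 with Mir467a. Mir467c and the 8 identical Mir467a probe sets had r of 0.79. Members of other families could follow Mir467c too: Mir297b had r of 0.69 with it, and the 2 Mir669i profiles 0.80 and -0.27. Mir669a-3 had r of -0.64 with Mir467a and -0.39 with Mir467c, while Mir297a-4, of the first pattern, had r of -0.04 with Mir467c and 0.205 with Mir467e. The third pattern was Mir669k, Mir669g and Mir669j, in which the 6 Mir669k profiles had r between 0.61 and 0.97. Wild type replicate 2, a pancreas-marked array, had the highest of the 19 values in Mir669j, in each Mir669g profile and in most Mir669k profiles. Subtracting group means keeps that array's distance from the other wild-type arrays. Its part in these r values was not tested. Mir669k and Mir669a-3 had r of 0.24, and -0.17 over the HGAL arrays alone.

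**Figure D4:**
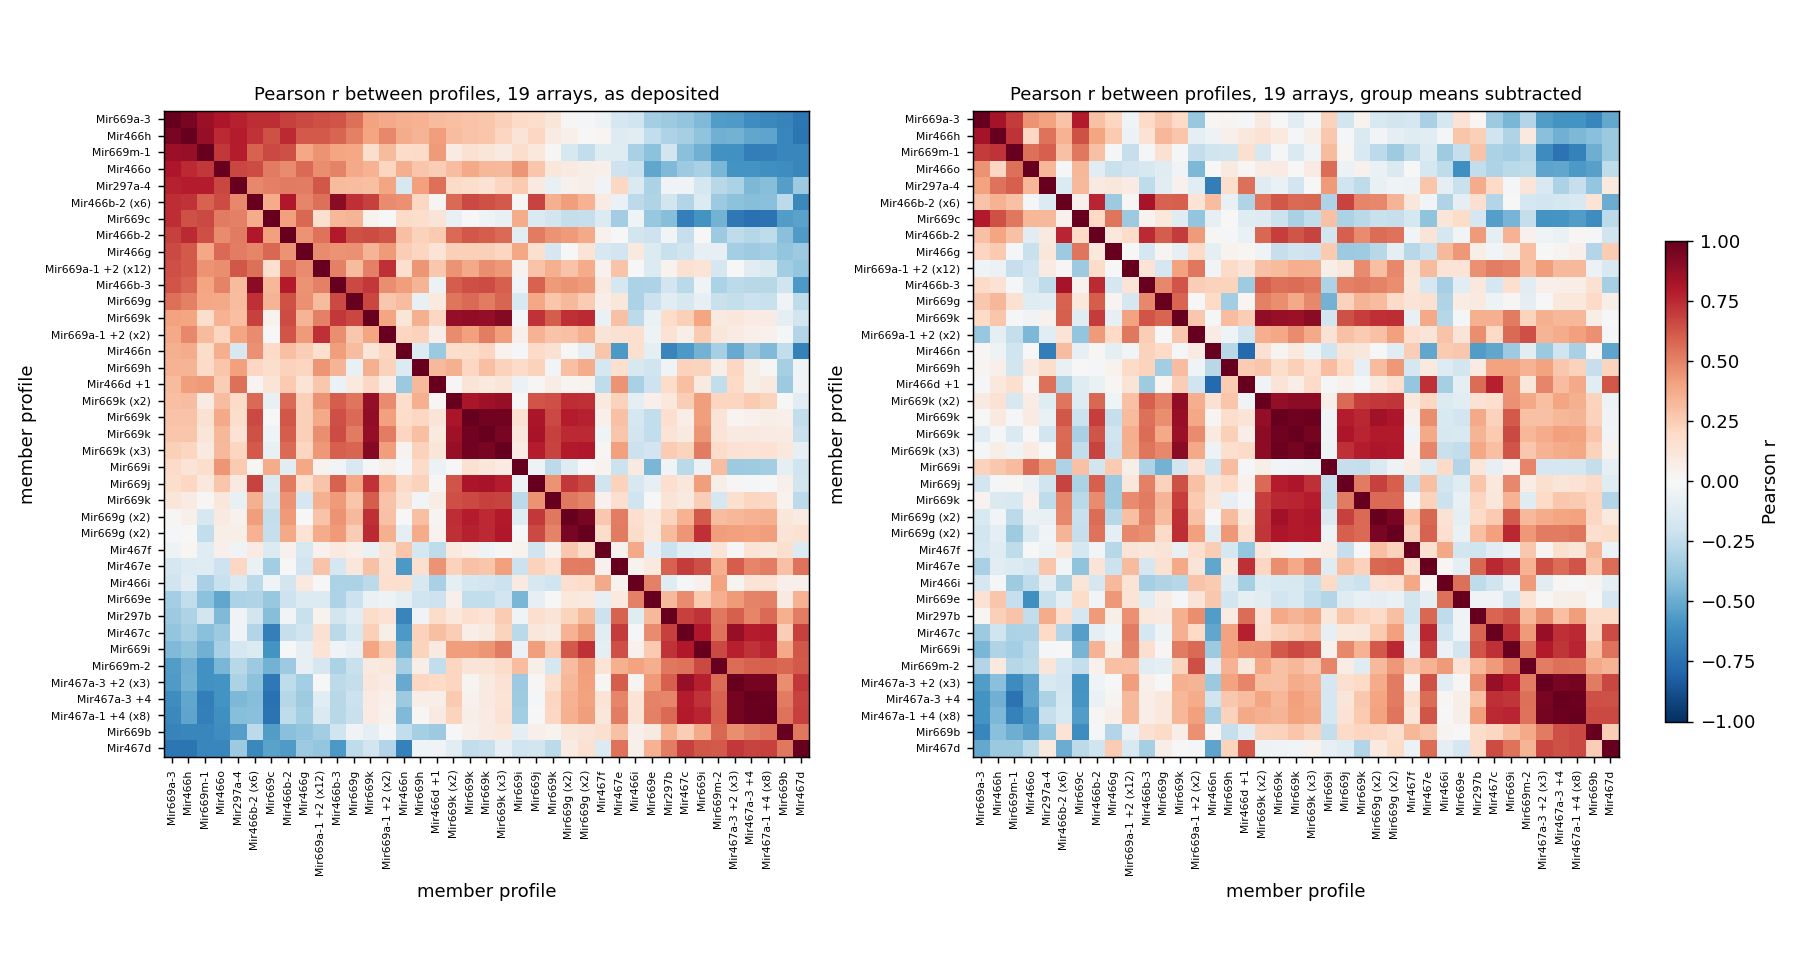
Pearson's r between the 39 member profiles over the 19 arrays, as deposited (left) and with each group's mean subtracted (right), both ordered by r with Mir669a-3. Red blocks mark the Mir669a-3 and Mir466h pattern at the top left, the Mir669k block in the centre and the Mir467 block at the bottom right.

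Probe sets that list the same symbol did not always give the same profile. The 2 Mir669i profiles had r of -0.06, the 3 Mir669g profiles had r between 0.26 and 0.95, and the 2 Mir466b-2 profiles had r of 0.80.

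Cell-type markers moved with some of these patterns. Mean erythroid marker level (3 of 5 measured) had r of 0.42 with Mir669a-3, 0.46 with Mir466h and -0.65 with Mir467c over the 19 arrays. It ranged over 7.32 to 10.55 in the Aid-Cre tumours, 6.62 to 11.03 in the Mb1-Cre tumours, 7.50 to 10.19 in the Sca1-Cre tumours, 6.01 to 8.66 in pre-tumour spleens and 9.21 to 9.89 in wild type. Mean neutrophil marker level (5 of 5 measured) had r of -0.62 with Mir467c. It ranged over 6.99 to 11.02 in the Aid-Cre tumours, 10.77 to 11.62 in the Mb1-Cre tumours, 8.53 to 10.56 in the Sca1-Cre tumours, 8.19 to 9.67 in pre-tumour spleens and 7.77 to 9.91 in wild type. B cell markers had r of 0.11 and T cell markers r of -0.21 with Mir669a-3. With Mir669k, of the third pattern, r was 0.61 for T cell, 0.55 for B cell, 0.52 for exocrine pancreas and -0.49 for neutrophil markers. These r values include wild type replicate 2, the pancreas-marked array with the highest Mir669k value. The part of these cells in the members' values was not tested, and in RNA of unsorted splenic cells fewer cells of a type and less RNA per cell cannot be told apart.

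Outside the members, the 8 named genes most like the mean of the member profiles over the 19 arrays were Rnase11, Tmie and Bahd1, each with r of 0.89, followed by Fam78a, Mrgprx2, Ppargc1b and Dnase1l2, with Clasrp last at 0.85. Tmie averaged 6.09 in the Aid-Cre tumours, 5.93 in the Mb1-Cre tumours, 6.07 in the Sca1-Cre tumours, 6.09 in pre-tumour spleens and 6.59 in wild type. Genes outside the families, picked as the most alike, also followed single members. Mir467c had r of 0.93 with Mir500 and 0.90 with Mir1195, above its 0.87 with the closest member, a Mir467a profile. Mir669a-3 had r of 0.90 with Ipw and 0.88 with Olfr820, against 0.95 with Mir466h and 0.86 with Mir669m-1. With group means subtracted, Mir500 had 0.90 and Ipw 0.47. These patterns were therefore not confined to the members.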

How the data were processed

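Total RNA of the splenic cells of 19 mice was isolated with Trizol, biotin-labelled and hybridised to Affymetrix arrays, 1 per mouse, per the labels. The authors normalised and summarised the arrays with RMA (oligo package), as the submitters' processing notes list, without versions. The table they deposited holds log2 expression for each probe set. The genome build is not given here. Values were used as deposited, with 0 columns unused and no filter. Symbols came from the platform annotation, and gene order and sequences from RefSeq GRCm38.p6.

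Groups were taken from the sample titles. One limma 3.58.1 fit (R 4.3.3) of group means over 41345 probe sets and 19 arrays (14 residual and 2.2 prior degrees of freedom) gave 9 contrasts, with Benjamini-Hochberg adjustment over all probe sets within each. It was tested on simulated data. All tumours means the 3 tumour groups weighted equally.

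The members and lists were chosen with earlier results of these data known. The members named were those called, the 8 with the widest tumour difference, the 5 brightest, and the 3 with the smallest p in each Sca1-Cre comparison. Identical profiles were counted once, which was decided after the duplicates were seen. Mir669c, Mir669e, Mir669i, Mir669m-2 and Mir297b were named after their values were seen. So were the genes most like Mir467c and Mir669a-3. Beyond the members, the rule named the host gene, its neighbours, up to 4 genes per list and the 8 genes most alike. The alternatives were other normalisations, filters, variance models, array weights, a replicate block, a sex covariate and left-out arrays. The number of arrays limits the precision. Pairing by replicate number was checked on 30 same-numbered pairs of arrays, of which 7 deviated together (r over 0.1), so the numbers were not taken to pair the mice.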

Additional observations from a re-analysis of the deposited data

How the results depend on the processing

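Under the other normalisations, and with 1 probe set per distinct row, an alternative chosen after the data were seen, no count of called members moved. Among pre-tumour spleens against wild type, where 1 member was called, the count was 2 with only probe sets above the median level, 0 with only probe sets that have a gene symbol, 2 with a variance trend and robust settings, 4 with array weights per group and 0 with sex as a covariate. For Aid-Cre tumours the count of 2 became 0 when only the compared groups were fitted and 0 with sex as a covariate. For Sca1-Cre tumours it became 14 with array weights per group, 12 of them the identical Mir669a probe sets. Leaving out both arrays with pancreatic transcripts gave 0 called members over all tumours, in Aid-Cre tumours, in Sca1-Cre tumours and in pre-tumour spleens, a median r between profiles of 0.0967, and a Mir467c tumour difference of -0.0085. With the replicate number as a block the counts were 0 over all tumours, 0 in Aid-Cre tumours, 1 in Sca1-Cre tumours and 0 in pre-tumour spleens; 1 of 19 arrays correlated best with its own number. The cause of these moves was not tested. Counts under these settings, and those with arrays left out, are given without the share of all probe sets called in the same fit. They describe the fits and are not results about the members.

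With each array left out in turn, the count of called members ranged from 0 to 3 over all tumours, 0 to 2 in Aid-Cre tumours, 0 to 0 in Mb1-Cre tumours, 1 to 2 in Sca1-Cre tumours and 0 to 0 in pre-tumour spleens. In Aid-Cre tumours it was 0 without Aid-Cre replicate 3 or 4 or wild type replicate 2 or 3, and 1 without Aid-Cre replicate 2 or wild type replicate 1. In Sca1-Cre tumours it was 1 without wild type replicate 2 or 3. Against each other the range was 0 to 1 for Aid-Cre and Mb1-Cre tumours and 0 to 3 for Mb1-Cre and Sca1-Cre tumours, both maxima without Mb1-Cre replicate 1. The median r ranged from 0.105 to 0.166, and from 0.0950 to 0.144 with group means subtracted. The tumour difference ranged from -0.0207 to 0.193 for Mir467c and from -0.240 to 0.0376 for Mir467e, so neither had a settled direction. Most members were dim, where signal over background limits the size of a difference.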
